A study of Drosophila melanogaster with 30 samples.

Results

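The 92 genes for the proteins of the cytosolic ribosome were chosen as the protein-coding genes of the release 6 gene table whose symbol begins with RpL or RpS followed by a digit or P, a rule that leaves out the mitochondrial ribosomal proteins. By symbol they comprise 54 genes of the large subunit and 38 of the small subunit, and all 92 were measured among the 17480 genes tested. The rule also takes in RpL7-like, RpL24-like and RpLP0-like, which are relatives of yeast ribosome assembly factors. Targeted DamID (TaDa) was carried out in adult Drosophila melanogaster. In every fly, mb247-Gal4 drove either UAS-Dam-CrebB or UAS-Dam in the cells of the mushroom bodies (MBs), with a ubiquitous temperature-sensitive Gal80 holding the driver off until the flies were kept at 29 °C. Paired flies received an odor together with sucrose, unpaired flies received odor and sucrose apart in time, and naive flies received no training. For the trained flies the fusion was induced either from 3 h before to 24 h after training (TI-1) or from 24 h to 48 h after it (TI-2), whereas the labels name no interval for naive flies. The naive flies were kept alike but not trained. By the study's methods, TI-1 flies were trained at a higher temperature than TI-2 flies. Interval and training temperature therefore cannot be told apart. This gave 5 groups of 3 replicates, and each replicate was 1 Dam-CrebB library set against 1 Dam-only library from pooled heads. The methylation comes only from cells in which the driver is active, and all MB cells with the driver are averaged, whether or not they took part in the odor response.

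Ribosomal proteins assemble with ribosomal RNA in the nucleolus into a large and a small subunit, which join on the mRNA and translate it. Their genes are spread over all chromosome arms, are short, are transcribed at high rates in most cells, and in flies many of them give the Minute phenotype of slow development and thin bristles when 1 copy is lost. CrebB is the fly member of the CREB family of transcription factors, and long-term memory requires both CREB activity and the synthesis of new proteins. Dam methylates adenine in GATC sequences near the place where the fused protein sits on the DNA, so the comparison asks whether Dam-CrebB marked the ribosomal protein genes above the marking by Dam alone, and whether training changed it.

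Each gene was given a level, the length-weighted mean of the deposited log2 ratios (Dam-CrebB over Dam) across every GATC fragment touching its body. A level of 0 means equal marking by both proteins, and a level of 1 means a ratio of Dam-CrebB to Dam that is higher by 1 on the log2 scale. The ratio measures marking of DNA and not the amount of mRNA. The ribosomal protein genes are short, with a median of 1315 bp against 2187 bp for all protein-coding genes, and they were covered by a median of 5 fragments (range 1 to 23) against 8 for all genes. RpL41 and RpL37-2 rested on 1 fragment each. Fragments run past the gene ends, and a median of 62.4% of the fragment bases lay inside the gene. The depth of each profile is not given in the sources used here, so no counting error is given and precision is limited by the 3 replicates.

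One profile stood apart before any comparison was made. In paired TI-1 replicate 3 the median of all genes was 0.62, and it lay between -0.00 and 0.12 in the other 14 profiles. Across the 92 ribosomal protein genes, levels in this profile correlated with those of the 13 profiles other than paired replicate 3 of either interval at r = 0.03 to 0.45, whereas those 13 correlated with each other at r = 0.62 to 0.96 (78 pairs, description only, since the profiles share genes and fragments). Paired TI-2 replicate 3 correlated with the 13 at r = 0.54 to 0.88, and at r = 0.72 with paired TI-1 replicate 3. The main medians and counts that rest on these profiles are given with and without them. Chromosome names carried the prefix chr in 7 profiles (all naive, all unpaired TI-1 and paired TI-1 replicate 1) and no prefix in the other 8. This difference in file writing falls together with the contrast of unpaired TI-1 and unpaired TI-2 and with both comparisons of TI-2 with naive flies, so naming and group cannot be told apart in these. It also enters in part the comparisons of paired TI-1 with unpaired TI-1 and with naive flies. There paired TI-1 replicates 2 and 3 lack the prefix that the other group carries. The labelled cell type cannot be checked by expression in these data. Of 8 genes that mark MB neurons, 7 had naive levels over 0.2 with a limma adjusted p under 0.05 and none was below -0.2 at that threshold. Of all genes, 28.6% were above and 17.3% below. Among 16 markers of glia, fat body, muscle, photoreceptors and testis, 3 were above and 5 below. Of these, 2 of 4 glia markers were above and 1 below, 1 fat body marker was above and 1 below, and all 3 muscle markers were below. The MB markers had a median of 67.5 fragments, against 10 to 35 in the other marker lists, so the lists are not alike in gene size.

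In naive flies the ribosomal protein genes formed no uniform block. Their levels ran from -0.88 for RpLP2 to 1.55 for RpS9, with a median of 0.07 over the 92 genes against 0.01 over all genes. A mean above 0 was found for 58 of the 92 (63.0%; all genes 52.4%). A gene was called when its adjusted p (limma with Benjamini-Hochberg adjustment over all 17480 genes) was under 0.01 and its level or difference exceeded 0.2 in size. By this rule no gene was called in naive flies (0% of all genes), because the smallest adjusted p of any gene was 0.0110. At an adjusted p under 0.05, 28 ribosomal protein genes (30.4%) were above 0 and 14 (15.2%) were below 0, against 28.6% and 17.3% of all genes. The limma test at an unadjusted p under 0.05 gave 30 above (32.6%; all genes 30.0%) and 14 below (15.2%; all genes 18.1%). All 3 naive profiles were above 0.2 for 21 of the 92 genes (22.8%; all genes 22.7%) and below -0.2 for 7 (7.61%; all genes 9.89%). The shares of ribosomal protein genes that passed these thresholds above or below 0 were thus close to those of the genome at large. The call rested on a narrow margin: with the genes at exactly 0 in all naive profiles taken out, an alternative added after the data were seen, the smallest adjusted p was 0.00903, and 10 ribosomal protein genes were called above 0 and 2 below (13.04% in all; all genes 11.8%). Without naive replicate 1, 18 were called above 0 and 1 below (20.7% in all; all genes 24.0%), and without naive replicate 2 or 3 none was called.

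**Figure D1:**
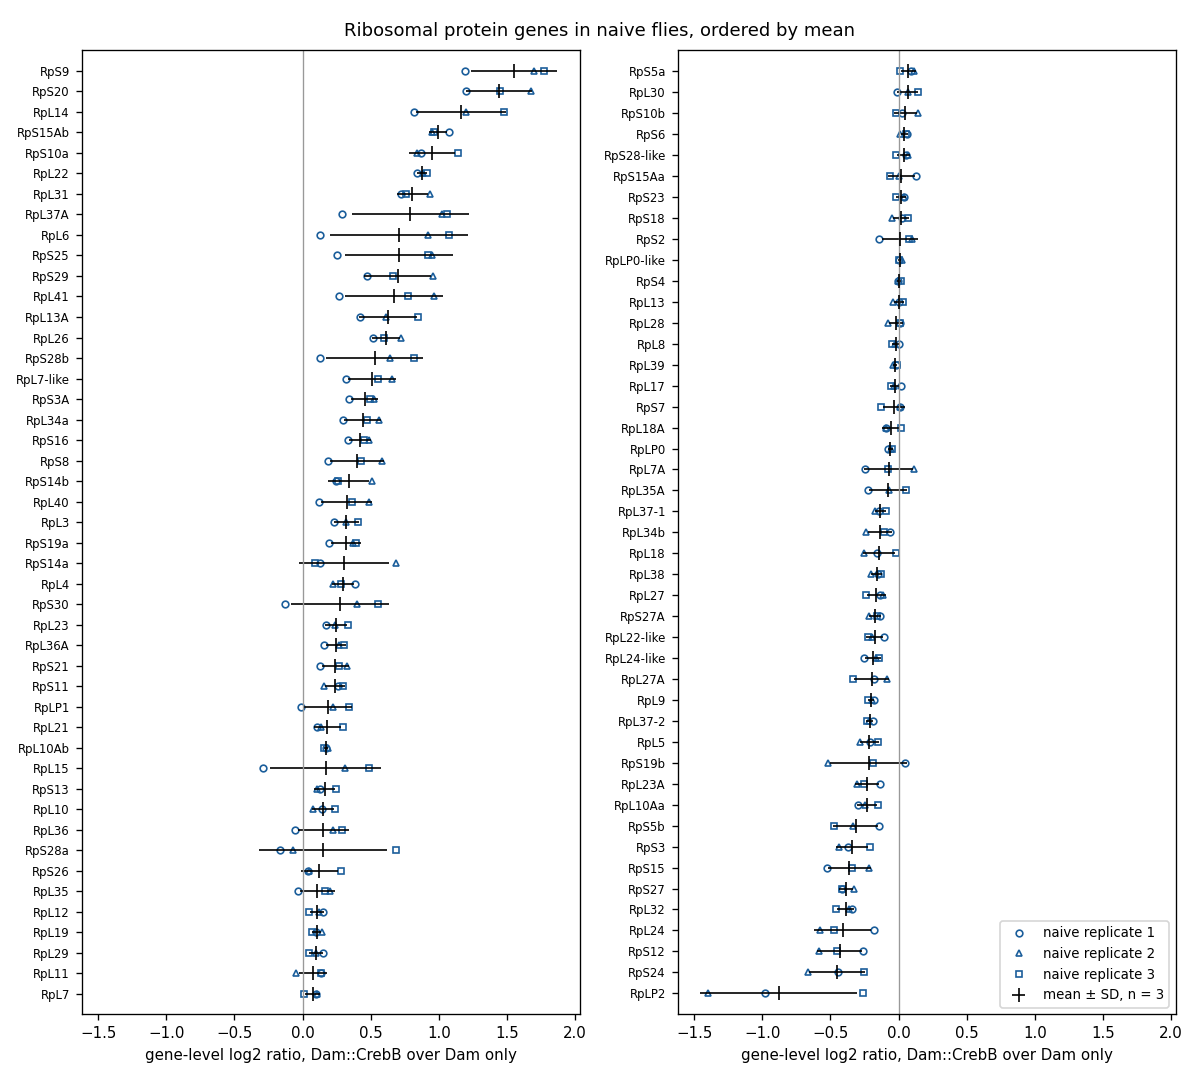
Level of each of 91 of the 92 ribosomal protein genes in naive flies. The x axis is the gene-level log2 ratio (Dam-CrebB over Dam), open symbols are the 3 replicates, and the bar is the mean with its SD. From RpS9 at 1.55 to RpL31 at 0.81 the first 7 genes shown stay above 0.7 in every replicate, while RpLP2 at the other end spreads from -1.40 to -0.26.

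Among the genes with the highest naive levels were RpS9, RpS20, RpL14, RpS15Ab and RpS10a, of which RpL14 belongs to the large subunit and the others to the small. RpS9, whose protein sits in the body of the small subunit and helps to keep decoding accurate, is at chr3L:9509793-9511531. Its naive levels were 1.19, 1.70 and 1.77, a mean of 1.55 ± 0.32 (SD, n = 3) with an adjusted p of 0.0110 by limma. RpS9 stayed high in every other group. It measured 1.80, 1.81 and 1.76 in unpaired TI-1, 1.59, 1.09 and 1.78 in paired TI-1, 1.45, 1.47 and 1.41 in unpaired TI-2, and 0.93, 1.88 and 2.50 in paired TI-2. The groups overlapped, apart from unpaired TI-1, whose lowest value lay above the highest of unpaired TI-2.

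RpS20 (chr3R:20822181-20823356), a protein of the head of the small subunit, measured 1.20, 1.68 and 1.45 in naive flies (mean 1.44 ± 0.24, SD, n = 3; limma adjusted p = 0.0110). Outside the naive group its levels ran from 0.96 to 2.13, so that no profile of the 15 came near 0. RpL14 (chr3L:8601006-8602392), a protein of the large-subunit surface, measured 0.82, 1.20 and 1.48 (mean 1.16 ± 0.33, SD, n = 3; limma adjusted p = 0.0122). RpL14 lies on the left arm of chromosome 3, as does RpS9, and all its 15 levels were above 0.8.

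RpS15Ab (chr2R:10821676-10822399) and RpS10a (chr3R:27652760-27653363) are the second copies of small-subunit genes. RpS15Ab had little spread, with 1.07, 0.95 and 0.96 in naive flies (mean 0.996 ± 0.07, SD, n = 3; limma adjusted p = 0.0110). RpS10a measured 0.87, 0.84 and 1.14 (mean 0.95 ± 0.17, SD, n = 3; limma adjusted p = 0.0110). Next in order came RpL22 (0.88 ± 0.04, SD, n = 3), a large-subunit protein with a histone-like extension in flies, and RpL31 (0.81 ± 0.12, SD, n = 3), a protein near the exit of the peptide tunnel. Neighbours in this order did not differ beyond their spread: among those named, the naive ranges overlapped for every adjacent pair from RpS9 to RpL31. RpS15Ab and RpL22, which are not adjacent, did not overlap.

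Levels of all 7 of these genes were above 0.2 in all 15 profiles. The genes were named for high naive levels, and the naive profiles are among the 15. The trained profiles other than paired replicate 3 correlated with the naive ones. Their values are thus no independent support for a high level. In the 13 profiles other than paired replicate 3, RpS9 ran from 0.93 to 1.88, RpS20 from 0.96 to 1.68, RpL22 from 0.53 to 1.13 and RpL31 from 0.40 to 1.07. Over the whole set, 10 of the 92 genes (10.9%) exceeded 0.2 in every one of the 15 profiles, against 9.39% of all genes.

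At the low end stood RpLP2, RpS24, RpS12, RpL24, RpL32 and RpS27. RpLP2 (chr2R:16586129-16586732) encodes an acidic protein of the stalk that recruits elongation factors to the large subunit. It measured -0.98, -1.40 and -0.26 in naive flies (mean -0.88 ± 0.57, SD, n = 3; limma adjusted p = 0.0474). It stayed below 0 in paired TI-1 replicates 1 and 2, at -0.40 and -0.69, in unpaired TI-1 at -0.37, -0.75 and -0.64, and in unpaired TI-2 at -0.47, -0.55 and -0.80. In paired TI-1 replicate 3 the same gene measured 2.17, and in paired TI-2 replicate 3 it measured 0.36, against -0.52 and -0.38 in paired TI-2 replicates 1 and 2. A single fragment of RpLP2 carried a naive mean of -2.56, the lowest fragment in any of the 6 low genes.

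RpS24 measured -0.45, -0.66 and -0.25 in naive flies (mean -0.45 ± 0.20, SD, n = 3; limma adjusted p = 0.0243). RpS12, a small-subunit protein that in flies takes part in cell competition between Minute and normal cells, measured -0.26, -0.59 and -0.45 (mean -0.43 ± 0.16, SD, n = 3; limma adjusted p = 0.0183). RpL24 measured -0.18, -0.58 and -0.47 with a limma adjusted p of 0.0308. RpL32, widely used as a reference gene in fly qPCR, measured -0.34, -0.37 and -0.46, and RpS27, a zinc-finger protein of the small subunit, measured -0.42, -0.32 and -0.41. These last 2 had the smallest spread of the low genes (SD 0.06 and 0.05, n = 3; limma adjusted p = 0.0110 for both). RpL32 and RpS12 stayed below 0 in all profiles except paired TI-1 replicate 3, where they measured 1.38 and 1.09. RpS15 was low as well, at -0.53, -0.21 and -0.34 in naive flies and down to -1.38 in unpaired TI-2 replicate 3. It is on the right arm of chromosome 2 at chr2R:16570112-16571230, close to RpLP2.

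The stalk proteins did not share a level. RpLP0, the base on which the stalk is built, lay near 0 in naive flies (-0.08, -0.05 and -0.05). RpLP1, the partner of RpLP2, measured -0.01, 0.23 and 0.34. In naive flies all levels of RpLP2 lay below all levels of RpLP0 and RpLP1. The fusion genes that encode ubiquitin joined to a ribosomal protein were also unlike: RpS27A measured -0.14, -0.22 and -0.16, and RpL40 measured 0.12, 0.49 and 0.36.

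Small-subunit genes had the higher median in each of the 15 profiles. In naive flies it was 0.08, 0.11 and 0.17 for the 38 small-subunit genes and 0.01, 0.07 and 0.05 for the 54 large-subunit genes. This difference of medians was not tested. By chromosome arm the naive medians were 0.07 for 19 genes on 2L, 0.02 for 21 on 2R, 0.08 for 14 on 3L, 0.15 for 23 on 3R and 0.09 for 14 on X, and RpS3A, the single gene on chromosome 4, was at 0.46.

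The 6 highest and 6 lowest genes were picked on their naive body levels. A high or low naive level at their midpoints therefore follows from that choice. Around the midpoints of the 6 highest genes the naive mean was 1.39 in the 500 bp bin centred 250 bp before the midpoint, and from 2750 bp outward the bins on either side lay between -0.15 and 0.34. The same genes gave 1.71 in unpaired TI-1 and 1.36 in unpaired TI-2 in that central bin. The 6 lowest genes showed a trough of -0.54 at 250 bp after the midpoint in naive flies, with -0.49 in unpaired TI-1 and -0.43 in unpaired TI-2. The unpaired profiles were not used to pick the genes, but they are among the 13 that correlated with each other at r = 0.62 to 0.96. Their values are thus no independent support for a peak or trough. Averaged over all 92 genes the central bins stood at 0.15 and 0.13, near the 0.12 seen at 4750 bp before the midpoint. All 13789 protein-coding genes dipped to 0.03 in both central bins, from 0.11 at 4750 bp before. In the bin before the midpoint the 3 naive profiles ran from 0.10 to 0.22 for the ribosomal protein genes and from -0.00 to 0.07 for all protein-coding genes. This difference of means was not tested.

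**Figure D2:**
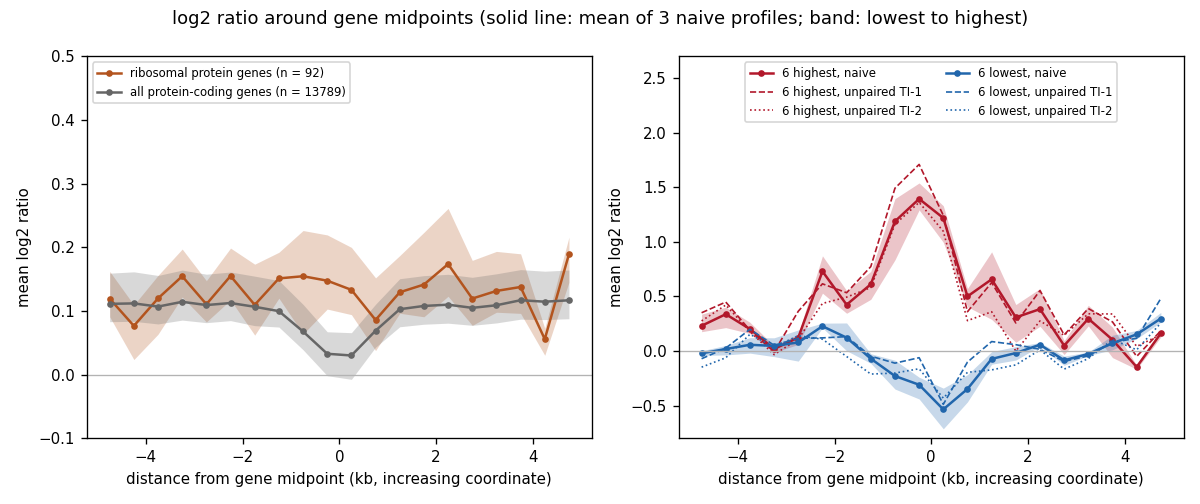
Mean log2 ratio in 500 bp bins against distance from the gene midpoint in kb, for fragments around the genes. Left, the 92 ribosomal protein genes and all 13789 protein-coding genes in naive flies; right, the 6 highest and 6 lowest genes, with the naive mean as a solid line and unpaired TI-1 and TI-2 as broken lines. Bands run from the lowest to the highest naive profile, and the 6 highest genes peak at 1.39 before the midpoint.

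Gene by gene, the body was compared with the fragments up to 5000 bp on either side. The body exceeded its flanks in all 3 naive profiles for 32 genes (34.8%) and lay below them for 42 (45.7%), against 35.6% and 46.4% of all protein-coding genes. RpL14 had a body level of 1.16 over flanks at -0.07, RpS15Ab had 0.996 over -0.09 and RpL31 had 0.81 over -0.05. RpS9 had 1.55 over flanks at 0.41 and RpS20 had 1.44 over 0.52. RpS10a rose less above its surroundings, with 0.95 over flanks at 0.54. RpLP2 showed the opposite, a body at -0.88 within flanks at 0.54. These genes were named for a high or low naive body level. Their gaps to the flanks in the same profiles thus follow in part from that choice. Within RpS9 the fragment with the highest naive mean reached 2.43 at chr3L:9509340-9510483, which covers the gene end with the lower coordinate, and the lowest fragment of the gene was at 0.24. In RpL22 the highest fragment, at chrX:763046-763444, reached 1.97 and the lowest 0.03. In RpL14 these values were 2.01 and 0.12. Which end of each gene is the promoter was not read here, since the gene table used carries no strand.

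Short genes share fragments with their neighbours, and this limits what can be assigned to a ribosomal protein gene. For 73 of the 92 genes at least 1 fragment also overlapped another protein-coding gene, among them RpS9 (CG3408 and CG33703), RpS20 (CG17271 and CG17272), RpL14 (Nelf-E and CG5989), RpS15Ab (Lsm10 and CG12343) and RpS10a (tau). Their naive median was 0.11, against 0.01 for the 19 genes with fragments of their own, which include RpL22 at 0.88 and RpLP2 at -0.88. Many ribosomal protein genes carry small nucleolar RNAs in their introns, which guide the modification of ribosomal RNA. Of the 92, 28 held at least 1 annotated snoRNA gene, and these had a naive median of 0.17 against 0.04 for the 64 without one. This difference in medians was not tested.

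Duplicated genes offered a comparison between copies that encode the same or a closely related protein. In 13 families with 27 genes and 15 pairs of copies, 3 pairs kept 1 order in all 15 profiles. RpS10a lay above RpS10b by 0.90 ± 0.24 in naive flies (SD, n = 3), with RpS10b at 0.03, 0.14 and -0.02. RpS15Ab lay above RpS15Aa by 0.97 ± 0.05 (SD, n = 3), with RpS15Aa at 0.13, 0.00 and -0.07. RpS28b lay above RpS28-like by a mean of 0.49 in naive flies, although in 1 profile by no more than 0.06. Since both copies are read in the same profile, a constant added to the whole profile cancels in these differences. A change in the spread of a profile does not cancel. Over the 15 profiles RpS10a minus RpS10b ran from 0.70 to 2.06, and RpS15Ab minus RpS15Aa from 0.57 to 1.87. RpL22 lay above RpL22-like, a copy best known from the male germline, in 14 of 15 profiles. Its excess in naive flies was 1.06 ± 0.10 (SD, n = 3), and the exception was paired TI-1 replicate 3, where RpL22-like measured 2.02 and RpL22 1.30. RpL10Ab exceeded RpL10Aa in 14 of 15 profiles.

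In the remaining pairs the order changed in more profiles. RpS5a exceeded RpS5b, a copy used in the ovary, in 13 of 15 profiles, with a naive difference of 0.39 ± 0.13 (SD, n = 3). RpL34a exceeded RpL34b by 0.58 ± 0.22 in naive flies, with 12 of 15 profiles in this order. RpL7-like, RpL24-like and RpLP0-like are relatives of yeast ribosome assembly factors. RpL7-like exceeded RpL7 by 0.44 ± 0.19 in naive flies and in 11 of 15 profiles, RpL24-like exceeded RpL24 in 10, and RpLP0-like exceeded RpLP0 in 12. RpL37-2 was above RpL37-1 in 8 profiles, and RpS19b was above RpS19a in 6. RpS14a and RpS14b lie side by side on X, share a fragment and encode near-identical proteins, so their levels of 0.30 and 0.34 in naive flies cannot be treated as separate measurements.

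**Figure D3:**
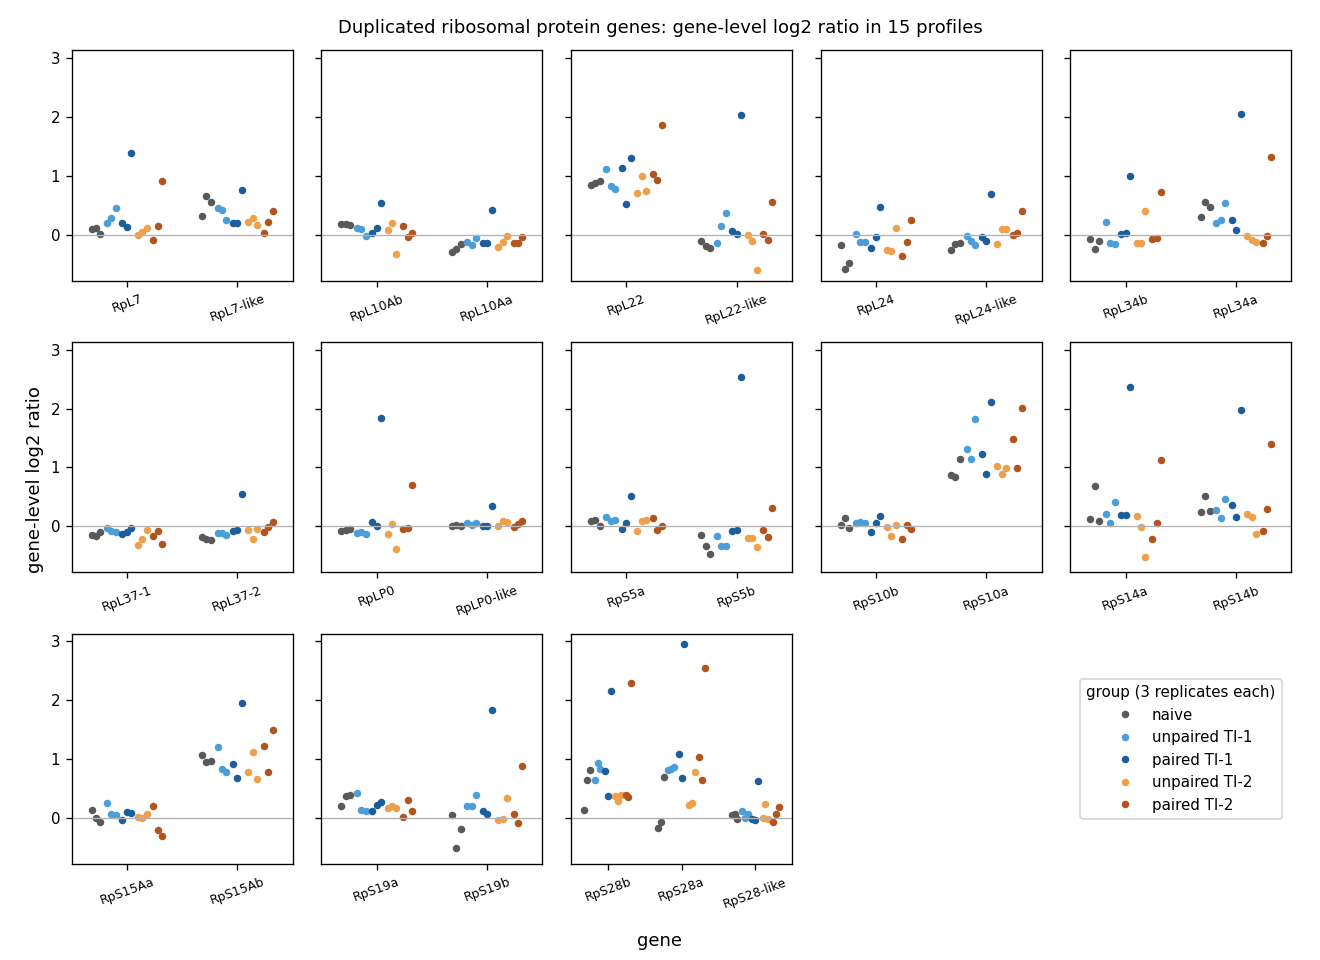
Level of each duplicated ribosomal protein gene in the 15 profiles, with 1 panel per family and points coloured by group (3 replicates each). The y axis is the gene-level log2 ratio. RpS10a and RpS15Ab lie above RpS10b and RpS15Aa in all 15 profiles.

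Training was then compared through the set as a whole. The median of the 92 genes was 0.04, 0.10 and 0.07 in naive flies, 0.17, 0.09 and 0.12 in unpaired TI-1, and 0.05, 0.06 and 1.35 in paired TI-1. It was -0.01, 0.07 and 0.03 in unpaired TI-2 and -0.00, 0.03 and 0.40 in paired TI-2. Apart from the third replicate of both paired groups, no median was below -0.01 or above 0.17. The ribosomal protein genes of paired TI-1 replicate 3 stood 0.73 above the median of all genes in that profile, and their median was at the 77.4th percentile of all genes. In paired TI-2 replicate 3 they stood 0.28 above, at the 68.0th percentile. In the 13 other profiles the gap ran from -0.01 to 0.09.

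**Figure D4:**
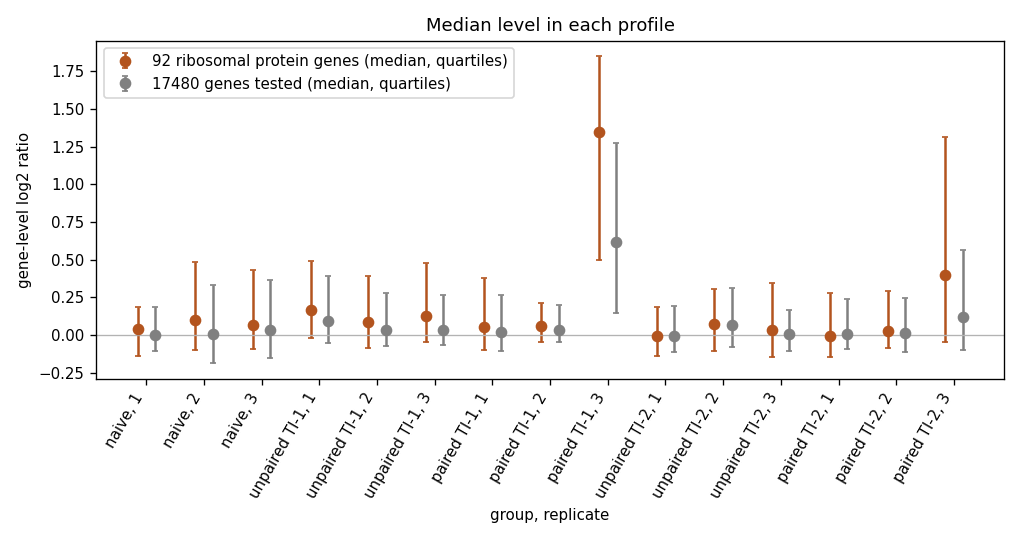
Median and quartiles of the gene-level log2 ratio in each of the 15 profiles, for the 92 ribosomal protein genes and for all 17480 genes tested. The x axis lists group and replicate. Paired TI-1 replicate 3 (medians 1.35 and 0.62) and paired TI-2 replicate 3 (0.40 and 0.12) lie above the rest.

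The shift in paired TI-1 replicate 3 was uneven across the genes. It was the highest of the 15 profiles for 67 of the 92 (72.8%; all genes 65.5%), and 50 genes exceeded 1 there (54.3%; all genes 34.5%). RpS28a, the shortest gene of the set at 304 bp, reached 2.95, RpL6 reached 2.83 and RpL4 reached 2.66. RpS5b, below 0 in every profile apart from paired replicate 3, reached 2.54. RpS15 reached 2.37, against -0.60 and -0.37 in paired TI-1 replicates 1 and 2. Against this, 5 genes were below 0 (all genes 12.8%): RpL15 at -0.74, RpL10 at -0.55, and RpL38, RpL37-1 and RpL23A between -0.04 and -0.00. RpL15 (chr3L:27267255-27268445) and RpL10 (chr3L:23093190-23095471) have the highest coordinates of the 14 genes on 3L, toward the centromere. RpS3A on chromosome 4 measured 0.04.

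**Figure D5:**
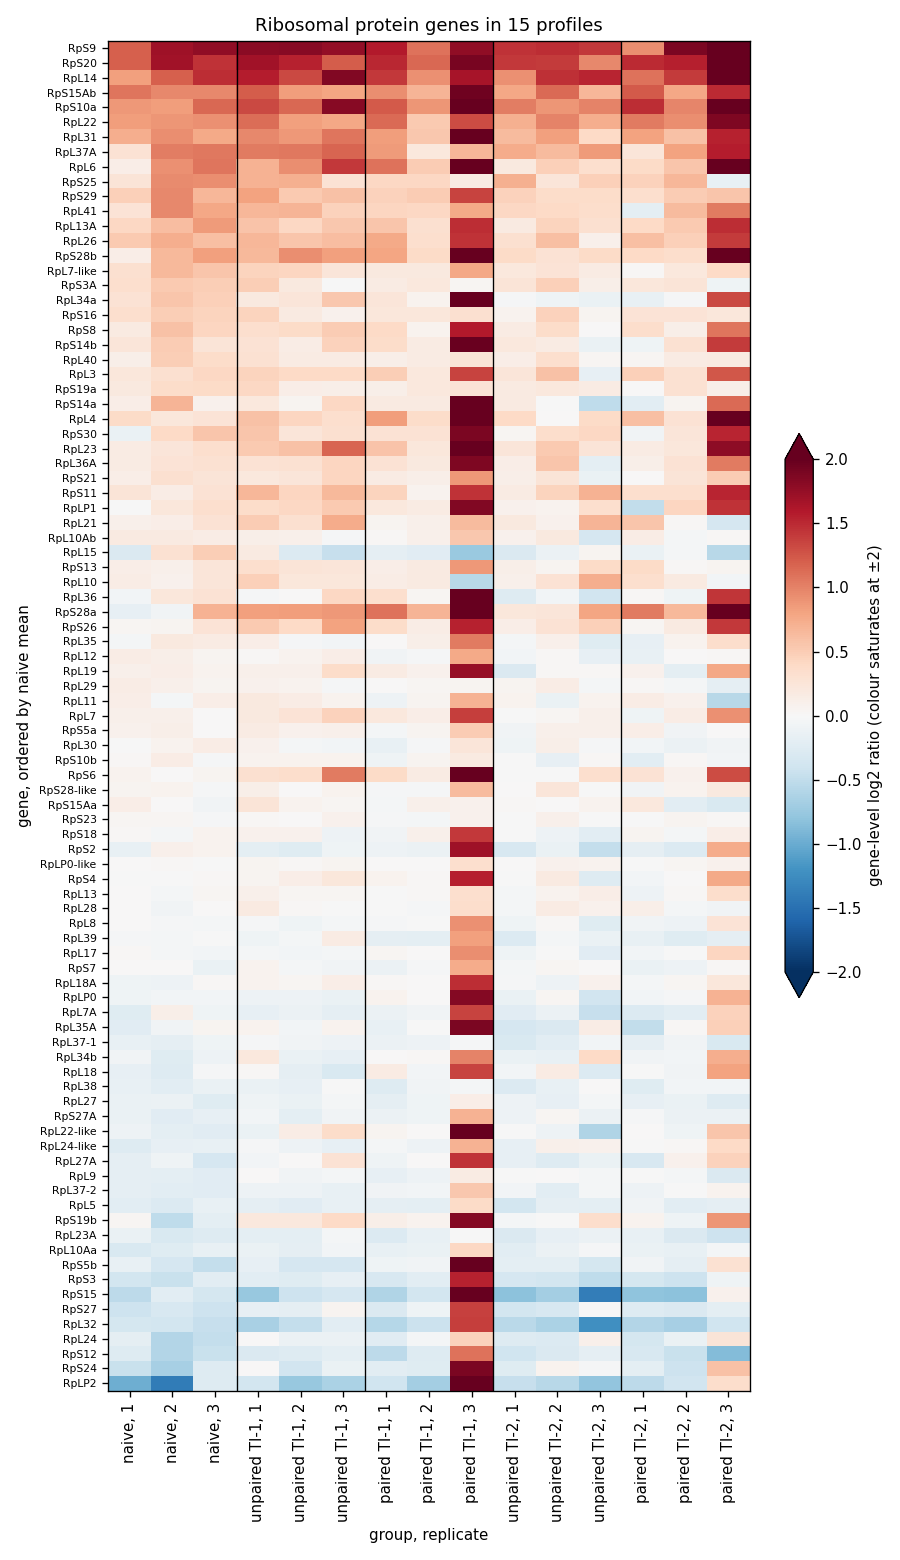
Levels of 91 of the 92 ribosomal protein genes (rows, ordered by naive mean) in the 15 profiles (columns, by group and replicate). Colour is the gene-level log2 ratio from blue (below 0) to red (above 0), saturating at 2 in either direction. The high genes at the top are red in every column, and paired TI-1 replicate 3 is red over most of the rows, with 50 genes above 1.

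Pairing was tested within each interval as paired minus unpaired, by limma on the differences between profiles of the same number. At TI-1, 0 ribosomal protein genes and 0% of all genes were called. At an unadjusted p under 0.05 with a difference over 0.2, limma gave 0 of the 92 and 1.02% of all genes. The median difference over the 92 was 0.22, against 0.11 over all genes, and it came from a single pair: the medians were -0.09 and -0.03 in the first and second pairs and 0.82 in the third. Without replicate 3 the median was -0.07, and limma placed 12 genes (13.04%; all genes 5.55%) below unpaired flies at an unadjusted p under 0.05, with 0 called. Paired and unpaired flies did not overlap for 5 genes that were higher after pairing (5.43%; all genes 4.27%), namely RpL7A, RpL17, RpL37-2, RpLP0 and RpS5b. They did not overlap for 2 that were lower, RpL37A and RpL10 (2.17%; all genes 2.18%).

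The smallest p at TI-1 belonged to RpL37A, a zinc-binding protein of the large subunit, to RpS25, which certain viral RNAs need to start translation, and to RpL14. RpL37A measured 1.04, 1.06 and 1.16 in unpaired and 0.85, 0.22 and 0.66 in paired flies, so every paired value was below every unpaired value. The difference was -0.51 ± 0.17 (SE, n = 3 pairs; limma adjusted p = 0.836). RpS25 measured 0.70, 0.71 and 0.29 in unpaired and 0.41, 0.42 and 0.16 in paired flies. Its difference of -0.24 ± 0.09 (SE, n = 3 pairs) had a limma adjusted p of 0.836, as had that of RpL14 at -0.25 ± 0.10. All 3 genes were lower in each of the 3 pairs, and none of them passed the test.

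At TI-2, 0 ribosomal protein genes and 0% of all genes were called for paired minus unpaired. At an unadjusted p under 0.05, limma gave 1 of the 92, RpS28a, and 0.572% of all genes. RpS28a is a short small-subunit gene on 3R. Of the bases in its 3 fragments 24.1% lay inside the gene, the lowest share of the 92. Its fragments also overlapped Mgat2 and Axn, so most of its level was read outside the gene. RpS28a measured 0.22, 0.25 and 0.78 in unpaired and 1.04, 0.65 and 2.54 in paired flies. These ranges overlapped, and the difference was 0.99 ± 0.32 (SE, n = 3 pairs; limma adjusted p = 0.892). RpS10a differed by 0.52 ± 0.21 and RpS6, the small-subunit protein phosphorylated by S6 kinase, by 0.45 ± 0.22 (SE, n = 3 pairs; limma adjusted p = 0.892 for both). All 3 genes were higher in each pair, with the largest step in the third. The median difference over the 92 was 0.15 against 0.02 over all genes, again from the third pair, with 0.57 there and 0.03 and -0.04 in the first and second pairs. Without replicate 3 it was -0.00, 2 genes (2.17%; all genes 0.652%) were higher at an unadjusted p under 0.05, and RpS28a differed by 0.61. Paired flies were above unpaired flies without overlap for RpS5b and RpS20 (2.17%; all genes 3.22%) and below for 0 genes (all genes 2.7%).

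The pairing effects of the intervals were set against each other directly. For the TI-1 effect minus the TI-2 effect, 0 ribosomal protein genes and 0% of all genes were called, and 0 of the 92 reached an unadjusted p under 0.05 with limma (0.469% of all genes). The smallest p belonged to RpL14 (-0.60 ± 0.28), RpS10a (-0.54 ± 0.28) and RpL37A (-0.64 ± 0.35), each with SE over 3 pairs an interval and a limma adjusted p of 1. No ribosomal protein gene moved one way in all 3 pairs at TI-1 and the other way in all 3 at TI-2.

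Each trained group was next compared with naive flies in 1 limma fit of all 15 profiles. The 4 comparisons share the naive profiles and are given side by side. In all 4, 0 ribosomal protein genes and 0% of all genes were called. At an unadjusted p under 0.05 with a difference over 0.2, unpaired TI-1 gave 0 of the 92 (all genes 0.984%), paired TI-1 gave 7 (all genes 10.3%), unpaired TI-2 gave 0 (all genes 2.92%) and paired TI-2 gave 1 (all genes 2.8%). The median difference was 0.06 for unpaired TI-1, 0.30 for paired TI-1, -0.06 for unpaired TI-2 and 0.09 for paired TI-2, against 0.05, 0.18, 0.00 and 0.05 over all genes. Without paired TI-1 replicate 3 the paired TI-1 median was 0.00, and 0 genes were above and 1 below at an unadjusted p under 0.05 (all genes 1.05% and 1.001%), in place of 5 and 2. Without paired TI-2 replicate 3, a choice made after seeing the data as was leaving out both, the paired TI-2 median was -0.04, and 0 genes were above and 1 below (all genes 0.481% and 0.95%). The fit shares its spread across groups, so leaving out the third replicate of both paired groups also moved the unpaired counts. Unpaired TI-1 then had 11 genes above and 0 below (11.96% and 0%; all genes 6.81% and 0.412%), and unpaired TI-2 had 2 above and 8 below (2.17% and 8.70%; all genes 4.34% and 4.67%). By limma 0 ribosomal protein genes were called in any of these fits.

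Groups that did not overlap were counted as a description. Unpaired TI-1 lay above naive for 17 genes (18.5%; all genes 22.6%) and below for 2 (2.17%; all genes 1.33%). Paired TI-1 lay above for 15 (16.3%; all genes 19.2%) and below for 3 (3.26%; all genes 4.61%). Unpaired TI-2 lay above for 3 (3.26%; all genes 10.9%) and below for 8 (8.70%; all genes 5.58%). Paired TI-2 lay above for 9 (9.78%; all genes 9.11%) and below for 7 (7.61%; all genes 3.23%). The widest of these 8 gaps was that for unpaired TI-2 above naive, and none of the gaps was tested. For both TI-2 groups the way chromosome names were written changes together with the comparison.

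RpL9, a large-subunit protein, showed a small shift in the unpaired groups. It measured -0.18, -0.20 and -0.23 in naive flies, 0.01, -0.06 and -0.04 in unpaired TI-1 and -0.01, 0.00 and -0.04 in unpaired TI-2. Paired TI-1 (-0.16, -0.10 and 0.17) lay above the naive flies without overlap, and paired TI-2 (-0.00, -0.04 and -0.29) overlapped them. Both unpaired groups lay above the naive flies without overlap and overlapped each other. The differences of 0.17 ± 0.09 and 0.19 ± 0.09 (SE, n = 3 a group) did not pass, with a limma adjusted p of 1 for both. RpS3A, a small-subunit protein, measured 0.34, 0.53 and 0.50 in naive flies and 0.23, 0.26 and -0.08 in paired TI-2, a difference of -0.32 ± 0.14 (SE, n = 3 a group; limma adjusted p = 1), and -0.23 ± 0.14 for unpaired TI-1. RpS28a measured -0.16, -0.07 and 0.69 in naive flies and 1.08, 0.67 and 2.95 in paired TI-1, and these ranges overlapped. The difference was 1.42 ± 0.58 for paired TI-1 (SE, n = 3 a group; limma adjusted p = 0.283) and 1.26 ± 0.58 for paired TI-2 (limma adjusted p = 1). Without paired TI-1 replicate 3 the former was 0.73, and without paired TI-2 replicate 3 the latter was 0.69.

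The other genes with the smallest p against naive flies also failed the test. RpL37-2 differed by 0.35 ± 0.13 in paired TI-1 and RpL24 by 0.47 ± 0.20 (SE, n = 3 a group; limma adjusted p = 0.283 for both), and RpL24 by 0.33 ± 0.20 in unpaired TI-1. Without paired TI-1 replicate 3 these were 0.15 for RpL37-2 and 0.27 for RpL24 in paired TI-1. RpL37-2 measured -0.19, -0.21 and -0.23 in naive flies and -0.07, -0.05 and 0.55 in paired TI-1, without overlap. In unpaired TI-2, RpS16 differed by -0.23 ± 0.11 and RpL7-like by -0.29 ± 0.15. In paired TI-2, RpL29 differed by -0.16 ± 0.07 (SE, n = 3 a group; limma adjusted p = 1 for all 3).

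The intervals were compared within each kind of training, and the training temperature changes with the interval in both comparisons. For unpaired TI-1 minus unpaired TI-2, 0 ribosomal protein genes and 0% of all genes were called, and 0 reached an unadjusted p under 0.05 with a difference over 0.2 in limma (0.12% of all genes). Unpaired TI-1 lay above unpaired TI-2 without overlap for 17 genes (18.5%; all genes 12.6%), RpS9, RpS10a, RpL31 and RpL37A among them, and below for 0 (all genes 0.395%). The median difference was 0.13 against 0.04 over all genes. Without the third replicate of both paired groups, whose spread enters the shared fit, 14 genes were higher at an unadjusted p under 0.05 (15.2%; all genes 6.9%) and 0 were called. The smallest p were those of RpL37-1 (0.13 ± 0.07), RpS10a (0.46 ± 0.31) and RpS10b (0.12 ± 0.09), each with SE over 3 profiles a group and a limma adjusted p of 1. The way chromosome names were written changes between these groups as well. Its part in the result cannot be told apart from that of the interval or of the training temperature.

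For paired TI-1 minus paired TI-2, 0 ribosomal protein genes and 0% of all genes were called, 0 reached an unadjusted p under 0.05 in limma (0.469% of all genes), and in neither direction did any of the 92 separate without overlap (all genes 0.2% above and 0.83% below). The median difference over the 92 was 0.16 (all genes 0.13), while it was -0.08 without paired TI-1 replicate 3, 0.32 without paired TI-2 replicate 3 and 0.03 without both. RpS12 (0.65 ± 0.32), RpS27 (0.58 ± 0.32) and RpL27 (0.14 ± 0.08) had the smallest p (SE, n = 3 a group; limma adjusted p = 0.639 for all 3). RpS12 measured -0.53, -0.26 and 1.09 in paired TI-1 and -0.32, -0.45 and -0.87 in paired TI-2. Its difference was 0.15 without paired TI-1 replicate 3, 0.48 without paired TI-2 replicate 3 and -0.01 without both. That of RpS27 was 0.06, 0.60 and 0.09 in the same order, and that of RpL27 was 0.05, 0.10 and 0.01. In the F test for any difference among the 5 groups, 0 ribosomal protein genes and 0% of all genes were called, and 0 reached an unadjusted p under 0.05 (0.738% of all genes). The smallest p there belonged to RpS28a, RpL37-2 and RpS3A, with group means up to 1.42, 0.35 and 0.32 apart (limma adjusted p = 0.773 for all 3).

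Other genes of the translation machinery were set beside the ribosomal proteins in naive flies, by counts at a limma adjusted p under 0.05 with a level over 0.2 in size. At this threshold 28.6% of all genes were above 0 and 17.3% below. Among 73 mitochondrial ribosomal protein genes, which serve the separate ribosome of mitochondria, 23 were above 0 and 6 below, with a median of 0.11. Among 26 translation initiation factors 11 were above and 3 below, with a median of 0.12, and among 9 elongation and release factors 7 were above and 1 below, with a median of 0.41. Among 28 ribosome biogenesis factors 6 were above and 8 below, with a median of -0.06. The cytosolic ribosomal protein genes, with 28 above, 14 below and a median of 0.07, lay within the range of these lists. Among 12 listed regulators of ribosomal protein genes and of growth, such as Dref, M1BP and Myc, 9 were measured, and all 9 were above 0, with a median of 0.58. These regulators had a median of 35 fragments, against 5 for the cytosolic set and 4 to 14 for the other translation lists. The lists are thus not alike in gene size. In paired TI-1 replicate 3 the medians were 1.19 for the mitochondrial set, 1.13 for the initiation factors, 0.86 for the elongation and release factors and 1.27 for the biogenesis factors, against 1.35 for the cytosolic set and 0.73 for all protein-coding genes.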

How the data were processed

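The data comprised 15 profiles of 30 libraries, in 5 groups of 3 replicates, grouped by the labels. The authors used read 1 of each pair, and the damid pipeline aligned it to genome release 6, extended and binned the reads, normalized them and added pseudocounts. The deposited values were log2 ratios (Dam-CrebB over Dam) per GATC fragment and replicate (383653 fragments in all profiles, 12.4% to 21.6% at exactly 0). The authors' gene lists, which hold their ratios and FDR values, were not used. The depth of each profile is not given in the sources used here, so no counting error could be given.

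Gene levels were length-weighted means over the fragments overlapping a gene of the RefSeq release 6 table, which lists neither strand nor exons, and 17480 genes with a value other than 0 were tested. Tests were made with limma 3.58.1 in R 4.3.3 (Python 3.11.15 for the rest), tested on simulated data, with Benjamini-Hochberg adjustment over all genes. Calls required an adjusted p under 0.01 and a size over 0.2, the numbers of the study's methods but not the same measure. Those methods set 0.2 on the ratio of Dam-CrebB over Dam and took q-values from the signal of several GATC fragments. Here 0.2 was also applied to differences between groups, and the p-values came from limma. Pairing was fitted on differences between same-numbered profiles, and the other comparisons on 3 or 15 profiles. The study's methods call the replicates biological, and p-values measure the spread between them.

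Genes named are the 6 highest and 6 lowest naive means, the stalk, ubiquitin-fusion and duplicated genes, and the 3 smallest p in each comparison where no gene was called. A gene that this rule names is not reported here on its own and is left out of the plots by gene. Other genes were named after their values were seen, namely RpL31, RpS15 and those named for paired replicate 3 or for groups that did not overlap. The members and lists were chosen with earlier results of these data known. Alternatives covered fragment weighting, zeros, scaling, thresholds, replicates left out and the replicate block.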

Additional observations from a re-analysis of the deposited data

How the results depend on the processing

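In naive flies the number of ribosomal protein genes called against 0 was 0 and depended on the margin at an adjusted p of 0.01. Beside the share of all genes called, it was 9 (7 above, 2 below; 9.78% against 9.28%) with fragments at exactly 0 left out, 21 (17 above, 4 below; 22.8% against 28.7%) with each profile centred on its median, 34 (31 above, 3 below; 37.0% against 41.1%) with quantile normalization, 18 (16 above, 2 below; 20.9% against 25.5%) for genes with at least 3 fragments, 12 (10 above, 2 below; 13.04% against 11.8%) without the genes at 0 in every naive profile (chosen after seeing the data), 14 (all above; 15.2% against 16.6%) with all 15 profiles in 1 fit, and 42 (28 above, 14 below; 45.7% against 45.9%) at an adjusted p under 0.05. Leaving out 1 replicate gave 0 to 19, the 19 (20.7% against 24.0%) without replicate 1. It stayed at 0 with an unweighted mean, with overlap weighting and with no minimum size. In the other comparisons 0 genes were called under every alternative run except array weights for unpaired TI-1 minus naive, which called 9 (4 above, 5 below; 9.78% against 7.53% of all genes). The weight fit did not converge and gave unpaired TI-1 replicate 2 a weight of 46.1. Leaving out replicates gave 0 to 0 in these comparisons.

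Same-numbered paired and unpaired profiles deviated together at r = 0.54, 0.03 and 0.46 at TI-1 and at r = -0.12, -0.09 and -0.25 at TI-2 over all genes, and at r = 0.42, 0.24 and 0.48 at TI-1 and r = -0.01, -0.17 and -0.10 at TI-2 over the 92. The numbers were not shown to pair the samples. With no replicate block, paired minus unpaired gave 0 called genes at both intervals, and with the replicate block in the fit of all profiles the other comparisons gave 0 as well.

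Among named genes, paired TI-1 minus paired TI-2 reversed for RpS12 (leaving out 1 replicate gave -0.0126 to 1.07, the lowest without replicate 3 of every group, leaving out replicate 3 of both paired groups alone, chosen after seeing the data, gave -0.0126, and array weights gave -0.0747) and for RpL27 (-0.0362 after centring, -0.0355 with array weights). The cause was not tested. Centring moved the all-gene median of paired TI-1 minus naive from 0.18 to -0.02, and that of the ribosomal protein genes from 0.30 to 0.09. The promoter-window alternative was not run, since no strand was at hand. Genes with 1 or 2 fragments (6 of 92) rest on few GATC sites.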
